A study of Mus musculus with 30 samples.

Results

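Vegfa, Vegfb, Vegfc, Vegfd, Pgf, Angpt1, Angpt2, Angptl4, Thbs1 and Thbs2 encode secreted proteins that drive or restrain the growth of blood and lymphatic vessels. They were chosen by gene symbol and not by their values, although earlier results of these data were known. They are 10 of the 48440 genes of the count table. Their RNA was measured in 30 tumors grown in C57BL/6 mice from 5 methylcholanthrene-induced fibrosarcoma lines, each derived from a primary tumor, after CD45+ leukocytes had been removed from the dissociated tumors with magnetic beads. The study compared lines whose growth did or did not depend on NK1.1+ cells. It tested this in hosts with and without an antibody that depletes NK1.1+ cells. Its methods do not say which of these hosts the sequenced tumors came from. MCA-943 (4 tumors) and MCA-969 (8 tumors) were the lines called non-sensitive, and MCA-948 (8 tumors), MCA-970 (6 tumors) and MCA-972 (4 tumors) those called sensitive. The labels mark 2 of the 8 MCA-969 tumors as sensitive. They give the mouse strain as Ncr1Cre for MCA-943 and as Ncr1Cre R26DTA for the other 4 lines, without saying whether this is the host or the mouse in which the line arose. The study derived its lines from tumors of mice of both genotypes and transplanted them into C57BL/6 mice. By that design the label matches the mouse in which the line arose. Line and strain cannot be told apart. Ncr1Cre drives Cre recombinase in NKp46+ cells and R26DTA is a diphtheria toxin allele that Cre switches on, which removes those cells. The lines are 5 individual lines and not samples of 2 kinds of tumor.

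Vegfa acts on the endothelial receptors Flt1 and Kdr, whereas Vegfb and Pgf act on Flt1, and Vegfc and Vegfd act mainly on Flt4 of lymphatic endothelium. The angiopoietins share the receptor Tek: Angpt1, made by perivascular and stromal cells, keeps vessels stable, and Angpt2, made mainly by endothelial cells, opposes it in many settings. Angptl4 inhibits lipoprotein lipase and is switched on by fasting, PPAR receptors and hypoxia, and Thbs1 and Thbs2 are matrix-associated inhibitors of angiogenesis that bind Cd36 and Cd47. Pecam1 and Cdh5 encode adhesion proteins of endothelial junctions and served as the endothelial reference genes; Pecam1 is also made by leukocytes and platelets.

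Total counts ran from 27745104 to 46537062 per tumor, and a member had between 124 counts (Pgf) and 97907 counts (Thbs2) in a tumor. All 10 members were among the 16862 genes that passed the filter on low counts. Levels are given as normalised read counts (CPM) on TMM-scaled library sizes, and as CPM per kilobase of exons where genes are compared with each other. The library numbers form 3 series (10 tumors of MCA-969 and MCA-972, 10 of MCA-948, MCA-970 and MCA-969, and 10 of MCA-943 and MCA-948), of which the labels say nothing, so that MCA-943 shared a series with MCA-948 alone. The study placed the cells in the right flank, and its cytometry figures plot each tumor from its own mouse. Nothing in the labels says this of the sequenced tumors, so p-values measure the spread between these tumors. In bulk RNA, fewer cells of a type and less RNA per cell cannot be told apart.

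Per kilobase, the thrombospondins and Vegfa led in most lines. Thbs2 was the highest of the 10 in every line, from 62.7 ± 18.9 CPM per kb in MCA-948 (SD, n = 8) to 403 ± 38.7 in MCA-970 (SD, n = 6). Thbs1 followed in 4 lines, at 120.4 ± 38.3 CPM per kb in MCA-969 to 177 ± 17.3 in MCA-970. MCA-948 was the exception: Vegfa (62.1 ± 22.5 CPM per kb) lay between Thbs2 and Thbs1 (51.4 ± 13.8), closer together than the spread between its tumors. At the other end stood the angiopoietins. Angpt1 was the lowest of the 10 in MCA-948, MCA-969 and MCA-970 (2.38 to 2.86 CPM per kb), and Angpt2 was the lowest in MCA-943 (1.51 ± 0.13) and MCA-972 (2.34 ± 0.36).

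**Figure D1:**
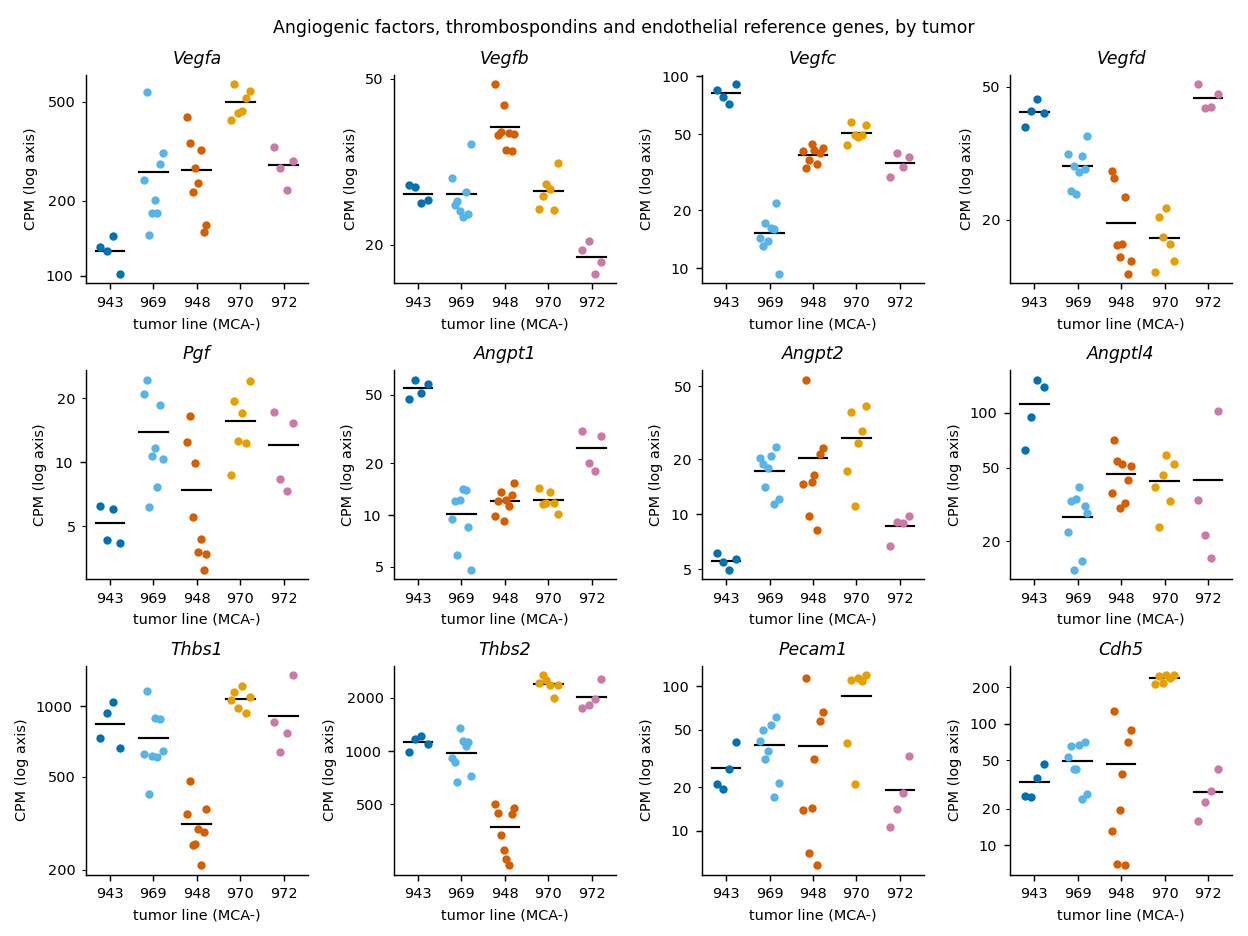
Levels of the 10 secreted factors and of Pecam1 and Cdh5 in CPM (log axis) by tumor line. Each point is 1 tumor and each bar the mean of a line; MCA-943 has the highest Vegfc, Angpt1 and Angptl4 and the lowest Vegfa, Pgf and Angpt2, MCA-948 the lowest Thbs1 and Thbs2, and Cdh5 lies at 211 to 252 CPM in all 6 MCA-970 tumors.

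All 10 members differed between the lines in the test of any line difference (edgeR quasi-likelihood F test, adjusted p at most 0.05), as did 94.1% of all genes tested, so this alone does not set them apart. The pairs of lines were then compared, and a gene was called at an adjusted p under 0.05 and a log2 fold change of at least 1 in either direction. MCA-943 differed in the most members: 6 of 10 were called against MCA-969 (27.0% of all genes), 8 against MCA-948 (29.0% of all genes), 7 against MCA-970 (27.3%) and 5 against MCA-972 (25.6%). Between MCA-948 and MCA-972, 6 members were called, against 26.8% of all genes. The other 5 pairs gave 2 or 3 called members. These were 3 between MCA-969 and MCA-948 (20.8% of all genes), 2 between MCA-969 and MCA-970 (21.4%), 3 between MCA-969 and MCA-972 (20.6%), 3 between MCA-948 and MCA-970 (29.4%) and 3 between MCA-970 and MCA-972 (17.6%). Over the 10 pairs, 46 of 100 values were called, with Angpt1 and Thbs2 called in 7 pairs each and Vegfb in 1. With the library series in the model, 30 of 100 were called. The pairs share lines, so these counts are not independent of each other.

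Vegfa, the main driver of endothelial growth, was lowest in MCA-943. Its 4 tumors had 102, 126, 131 and 145 CPM, and the lowest tumor of the other lines, of MCA-969, had 145.5 CPM. MCA-970 tumors had 422 to 589 CPM (median 489), MCA-948 tumors 149.8 to 436 (median 254), MCA-969 tumors 145.5 to 545 (median 222), and MCA-972 tumors 222, 270.5, 290.5 and 329.8. MCA-943 overlapped with no other line, and MCA-970 stood above all but 2 tumors of the other lines. Vegfa was called lower in MCA-943 than in each of the other lines, by -1.05 ± 0.28 (SE) against MCA-969 to -1.99 ± 0.30 against MCA-970 (log2, adjusted p = 0.00183 and 2.14e-06). MCA-972, MCA-948 and MCA-969, neighbours in the order, differed by 0.06 and 0.03 on the log2 scale (adjusted p = 0.854 and 0.91).

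The Vegfa call of MCA-943 against MCA-969 was lost without the MCA-969 tumor W-R, whose 545 CPM was the highest of that line (-0.81), or MCA-943 tumor a-R (-0.96). The call against MCA-948 was lost without MCA-948 tumor a-2G (-0.95) or MCA-943 tumor a-R (-0.995). Within the library series that holds both lines the difference between MCA-943 and MCA-948 was -0.87 (adjusted p = 0.00349). With library series as a covariate the difference was -0.85 against MCA-948, under the fold threshold (adjusted p = 0.00717), and -0.46 against MCA-969 and -0.62 against MCA-972, at adjusted p = 0.47 and 0.41.

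Pgf, a ligand of Flt1, was low in MCA-943 too, at 4.19, 4.32, 6.05 and 6.20 CPM, whereas MCA-969 tumors had 6.18 to 24.4 CPM (median 11.2) and MCA-970 tumors 8.71 to 24 CPM (median 14.8). MCA-948 spanned 3.13 to 16.4 CPM (median 4.95) and MCA-972 7.32 to 17.2 CPM (median 11.8). No pair of neighbours in the order of means was called (adjusted p = 0.126 to 0.698), and of the other lines MCA-970 and MCA-972 lay entirely above MCA-943. Pgf was called lower in MCA-943 than in MCA-969 (-1.42 ± 0.44), MCA-970 (-1.601 ± 0.45) and MCA-972 (-1.21 ± 0.48), and lower in MCA-948 than in MCA-970 (-1.09 ± 0.35). None of the 4 calls remained with library series in the model, where the MCA-943 differences became 0.02, -0.09 and 0.20 and that of MCA-948 and MCA-970 became -0.12. Within the series that holds MCA-948 and MCA-970 it was -0.11 (adjusted p = 0.819). The call against MCA-972 was lost without MCA-972 tumor a-1 or a-R or MCA-943 tumor a-1D or a-R (-0.99 to -1.16, adjusted p up to 0.104), and that of MCA-948 against MCA-970 without MCA-970 tumor a-2G or MCA-948 tumor W-1G, a-1G or a-2D (-0.92 to -0.99).

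Vegfb, the other Flt1 ligand, was the most even of the 10, with line means between 18.7 and 38.4 CPM, a ratio of 2.05. MCA-948 was highest (33.6 to 48.6 CPM, median 37.0), MCA-972 was lowest (16.99, 18.1, 19.4 and 20.3 CPM), and MCA-943, MCA-969 and MCA-970 shared a mean of 26.5 to 26.9 CPM. All MCA-948 tumors lay above all MCA-970 tumors, and all MCA-972 tumors lay below those of every other line. The call was between MCA-948 and MCA-972 (1.04 ± 0.11, adjusted p = 1.17e-09), and it fell just under the fold threshold without MCA-972 tumor 2G or MCA-948 tumor a-2G (0.98 and 0.996), and with library series as a covariate (0.99).

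The ligands of the lymphatic receptor, Vegfc and Vegfd, ran differently. Vegfc was highest in MCA-943, at 71.7, 78.5, 85.0 and 91.3 CPM, and lowest in MCA-969, at 9.32 to 21.7 CPM (median 15.1). MCA-970 (43.8 to 57.8 CPM), MCA-948 (33.5 to 44.6 CPM) and MCA-972 (29.9 to 39.9 CPM) lay between. No tumor of MCA-943 or MCA-969 overlapped with any tumor of another line. MCA-943 had 5.37 times the mean of MCA-969 (log2 2.42 ± 0.13, adjusted p = 1.96e-15), and MCA-969 was called lower than each other line. The difference between MCA-969 and MCA-970 was -1.74 ± 0.12 in the fit of all tumors and -1.70 within their shared library series. MCA-969 stood -1.23 below MCA-972 within the series that holds both. Vegfc was thus at its extremes in the lines called non-sensitive, in opposite directions. The 4 lymphatic endothelium markers were Prox1, Lyve1, Mmrn1 and Ccl21a, the last uncertain because it has near-identical copies. All 4 were called lower in MCA-969 than in MCA-948, MCA-970 and MCA-972 (20.8, 21.4 and 20.6% of all genes called). Their medians were -1.38, -2.62 and -1.72 on the log2 scale. Their summed level was 1.39 to 10.7 CPM in MCA-969, 8.84 to 22.7 in MCA-943, 2.496 to 36.1 in MCA-948, 28.7 to 68.8 in MCA-970 and 14.96 to 31.7 in MCA-972. In MCA-943, the line of highest Vegfc, 1 of the 4 (Ccl21a) was called higher than in MCA-969 (27.0% of all genes called). All 4 were called lower there than in MCA-970 (27.3% of all genes called). Of 7 leukocyte markers, 4, 5 and 1 were called lower in MCA-969 than in MCA-948, MCA-970 and MCA-972, and 0 higher. The part of lymphatic vessel content in the Vegfc level was not tested.

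Vegfd was highest in MCA-972, at 43.3, 43.4, 47.6 and 51.0 CPM, and in MCA-943, at 37.9, 41.8, 42.3 and 46.0 CPM, a difference of 0.14 ± 0.18 on the log2 scale (adjusted p = 0.521). MCA-969 followed with 23.9 to 35.5 CPM (median 28.6). MCA-948 (13.7 to 27.9 CPM, median 16.9) and MCA-970 (13.9 to 21.7 CPM, median 17.3) were lowest, at a difference of 0.15 ± 0.14 (adjusted p = 0.356). MCA-943 and MCA-972 each stood wholly above the other 3 lines. The 4 calls were those of MCA-943 and MCA-972 against MCA-948 and MCA-970, with MCA-943 higher by 1.11 and 1.25 and MCA-972 by 1.25 and 1.396 on the log2 scale. MCA-948 and MCA-972 share no library series, and with series as a covariate their difference was -0.96 (adjusted p = 0.00243), under the fold threshold. In that fit MCA-943 was called higher than MCA-969 (1.09, adjusted p = 0.000521), against 0.54 and no call in the main fit.

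Angpt1, the stabilizing ligand of Tek, and Angpt2 were ordered oppositely in MCA-943 and MCA-972, the lines highest in Angpt1 and lowest in Angpt2. Angpt1 reached 47.0, 51.3, 58.0 and 61.1 CPM in MCA-943 and 18.1, 20.1, 28.8 and 30.7 CPM in MCA-972. In the other lines it lay at 10.2 to 14.3 CPM (MCA-970), 9.24 to 15.4 CPM (MCA-948) and 4.83 to 14.1 CPM (MCA-969). MCA-943 and MCA-972 overlapped with no other line, and the other 3 lines overlapped with each other (adjusted p = 0.198 and 0.963 for neighbours). The excess in MCA-943 was 2.42 ± 0.20 against MCA-969, 2.17 ± 0.20 against MCA-948 and 1.16 ± 0.24 against MCA-972 (adjusted p = 1.69e-11, 8.35e-11 and 0.000145). Within the series shared by MCA-943 and MCA-948 it was 2.09, and within that of MCA-969 and MCA-972 the difference was -1.11.

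The calls of Angpt1 that set MCA-972 above MCA-948 (-1.01 ± 0.20) and MCA-970 (-1.002 ± 0.21) lay at the fold threshold. Leaving out any 1 of 18 tumors moved the latter under it, to between -0.9998 and -0.87 with an adjusted p of at most 0.00303; these were W-2G, W-1D, a-1D, a-1G and a-R of MCA-969, a-1 and a-R of MCA-972, W-2D, W-R, a-2D and a-2G of MCA-970, a-1G and a-R of MCA-943, and W-1D, W-2D, W-1G, a-1G and a-2D of MCA-948. The former moved to between -0.998 and -0.88 without MCA-972 tumor a-1 or a-R, MCA-948 tumor a-2G, W-2D or W-2G, or MCA-943 tumor a-1G. MCA-972 shared no library series with either line, and with series as a covariate the differences were -0.41 and -0.25 (adjusted p = 0.426 and 0.585).

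Angpt2, the endothelial ligand, was lowest in MCA-943 (4.99, 5.48, 5.71 and 6.13 CPM) and next in MCA-972 (6.74, 8.97, 9.07 and 9.83 CPM). MCA-969 had 11.3 to 23.3 CPM (median 18.3), MCA-948 8.25 to 54.4 CPM (median 15.6) and MCA-970 11.1 to 38.9 CPM (median 26.4). MCA-943 lay below every other tumor, and MCA-948, MCA-969 and MCA-970 overlapped. MCA-943 was called lower than MCA-970 (-2.22 ± 0.40), MCA-948 (-1.86 ± 0.39) and MCA-969 (-1.63 ± 0.38), and MCA-972 lower than MCA-970 (1.59 ± 0.39) and MCA-948 (1.23 ± 0.37). The MCA-948 tumor a-R, at 54.4 CPM, carried the last of these: without it MCA-948 exceeded MCA-972 by 0.84 (adjusted p = 0.0115), under the fold threshold. The difference of MCA-943 and MCA-948 was -1.51 within their shared library series, and those of MCA-943 with MCA-969 and MCA-970 were -0.53 and -1.08 with series as a covariate (adjusted p = 0.522 and 0.115). Pecam1 and Cdh5 were also called lower in MCA-943 and MCA-972 than in MCA-970, and in no pair without MCA-970. The part of vessel content in the Angpt2 line differences was not tested.

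The Angpt2 gene overlaps Mcph1 on the opposite strand, and the strand setting of the counting is not given in the sources used here. Mcph1 had 798 to 2258 counts in a tumor, up to 604.5% of the Angpt2 count of the same tumor. Angpt2 had as few as 132 counts, in MCA-943. The part of Mcph1 reads in the Angpt2 level was not tested. The correlation of Angpt2 with Mcph1 within lines was -0.37 over 30 tumors, and the Mcph1 slope on Pecam1 was -0.06 ± 0.04 (adjusted p = 0.498), against 0.52 for Angpt2.

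Since both angiopoietins bind Tek, their ratio was taken in each tumor, per kilobase. Angpt2 over Angpt1 was 0.103 to 0.15 in MCA-943 and 0.254 to 0.571 in MCA-972. It was 0.825 to 5.22 in MCA-948 (median 1.71), 0.931 to 3.14 in MCA-969 (median 2.14) and 1.08 to 4.41 in MCA-970 (median 2.44). Angpt1 RNA thus exceeded Angpt2 RNA per length in all 8 tumors of MCA-943 and MCA-972, and no tumor of those lines overlapped with the other 22. The Vegfc to Vegfd ratio divided the lines along another boundary. It was below 1 in all tumors of MCA-969 (0.258 to 0.755) and MCA-972 (0.577 to 0.905) and above 1 in all tumors of MCA-943 (1.53 to 2.21), MCA-948 (1.24 to 2.85) and MCA-970 (2.19 to 3.67). The share of Vegfa in the summed RNA of the 5 VEGF family members was 24.5 to 33.2% in MCA-943, where it was lowest, and 65.4 to 70.7% in MCA-970. The other lines had medians of 53.0 to 54.7%.

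**Figure D2:**
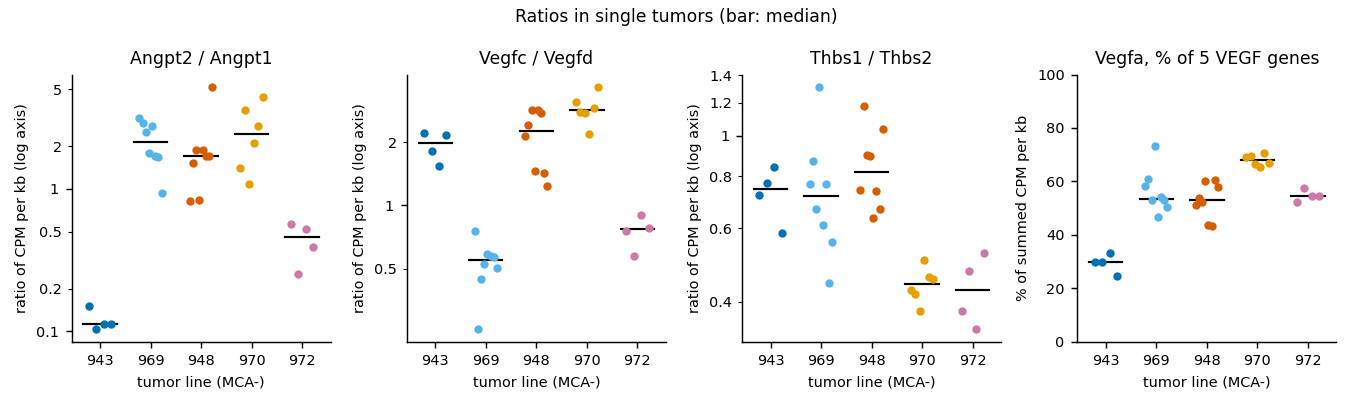
Ratios of CPM per kilobase in single tumors (log axes), and Vegfa as a percentage of the summed CPM per kilobase of Vegfa, Vegfb, Vegfc, Vegfd and Pgf (linear axis). Points are tumors and bars are medians; Angpt2 over Angpt1 is below 1 in all MCA-943 and MCA-972 tumors, and Vegfc over Vegfd is below 1 in all MCA-969 and MCA-972 tumors.

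Angptl4, the lipoprotein lipase inhibitor, was highest in MCA-943 (62.2, 94.4, 138 and 151 CPM). MCA-948 had 30.2 to 71.2 CPM (median 47.1), MCA-970 23.9 to 58.9 CPM (median 42.5) and MCA-969 13.99 to 39.1 CPM (median 29.7). MCA-972 tumors were at 16.2, 21.5, 33.5 and 101 CPM, so that tumor a-R held its mean of 43.1 CPM. Of these lines MCA-969 and MCA-970 lay wholly below MCA-943. MCA-943 was called higher than each other line, by 1.27 ± 0.35 against MCA-948 to 2.04 ± 0.34 against MCA-969, and the other 4 lines gave no call among themselves. The value against MCA-948 within the shared library series was 1.32, and that against MCA-972 lost its call with series as a covariate (1.49, adjusted p = 0.171).

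Thbs1 and Thbs2, the matrix-associated inhibitors, were lowest in MCA-948. Thbs1 had 209 to 479 CPM there (median 294), against 661, 732, 931 and 1044 CPM in MCA-943, 421 to 1163 CPM in MCA-969 (median 635), 932 to 1215 CPM in MCA-970 (median 1081) and 639, 765, 853 and 1357 CPM in MCA-972. MCA-948 overlapped only with the lowest MCA-969 tumor. Its Thbs1 was called lower than in every other line, by 1.23 ± 0.18 against MCA-969 to 1.78 ± 0.19 against MCA-970 on the log2 scale, and no neighbours in the order of the other 4 lines were called (adjusted p = 0.39 to 0.754).

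Thbs2 was more graded. MCA-970 (1987 to 2679 CPM, median 2398) and MCA-972 (1756, 1817, 1968 and 2535 CPM) were highest, at a difference of 0.24 ± 0.20 (adjusted p = 0.326). MCA-943 had 989, 1100.5, 1176 and 1209 CPM and MCA-969 673 to 1346 CPM (median 989.5). MCA-948, at 228 to 506 CPM, lay below every tumor of the other lines. MCA-970 had 6.43 times the Thbs2 mean of MCA-948 (-2.69 ± 0.17 for MCA-948 minus MCA-970, adjusted p = 3.51e-14), which was the widest line difference among the 10 members. Within the series shared by MCA-948 and MCA-970 the difference was -2.31 for Thbs2 and -1.36 for Thbs1. Against MCA-969, within the same series, MCA-948 was lower by 0.95 and 0.88 (2 tumors each), under the fold threshold. Thbs2 in MCA-969 against MCA-972 (-1.04 ± 0.18) fell under the threshold without MCA-969 tumor a-1D or W-2D or MCA-972 tumor a-R (-0.91 to -0.99), and that of MCA-943 against MCA-970 (-1.09 ± 0.20) became -0.58 with library series as a covariate (adjusted p = 0.125).

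The RNA of the lines called non-sensitive and sensitive was set side by side with the line as the unit, 2 lines against 3. Vegfa was the only member whose line means separated, with 126 and 261 CPM in MCA-943 and MCA-969 and 267, 278 and 498 CPM in the sensitive lines. The gap between 261 and 267 CPM was smaller than the spread between the tumors of either line (SD 128 and 96.7). For the other 9 members the ranges of line means overlapped. No test was made of 2 lines against 3. The share of all genes whose line means separate in this way was not computed, so the separation alone does not set Vegfa apart.

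Other genes of the pathway were counted from lists fixed with earlier results of these data known. Of 11 receptors, 4 were lower and 1 was higher in MCA-943 than in MCA-970 (27.3% of all genes called), and 3 were higher and 1 lower in MCA-943 than in MCA-948 (29.0% called). Of 12 measured relatives (other thrombospondins and Comp, Angpt4, angiopoietin-like proteins and PDGF ligands), 9 were lower in MCA-948 than in MCA-970 and none was higher (29.4% of all genes called in either direction), with a median of -1.95 against -0.05 over all genes. Among them, chosen after their values were seen, Thbs4 averaged 7.95 CPM in MCA-948, 195 in MCA-970 and 828 in MCA-943, and Angptl7, at 47.9 CPM or less in 4 lines, averaged 175 in MCA-972. The 12 measured secreted inhibitors other than the members included 8 that were lower and none that was higher in MCA-948 than in MCA-970, and 8 that were higher and 1 that was lower in MCA-943 than in MCA-948 (median 2.26). Of the 11 other secreted pro-angiogenic factors 7 were higher in MCA-943 than in MCA-948 and 1 was lower: Mdk, a heparin-binding growth factor, at 0.91 CPM in MCA-943 and 196 in MCA-948. In MCA-948 against MCA-970, 8 of these 11 activators were lower and 1, Sema4d, was higher (1.65 ± 0.52), beside 8 of 12 inhibitors lower, where 29.4% of all genes were called.

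Pecam1 and Cdh5 were examined before the members were set against them. Pecam1 ran from 5.82 to 119 CPM over the 30 tumors, with 5.82 to 114 in MCA-948, 17.2 to 61.1 in MCA-969, 20.99 to 119 in MCA-970, 19.4 to 40.9 in MCA-943 and 10.7 to 32.8 in MCA-972. Cdh5 tracked it in 4 lines, at 0.953 to 1.604 times Pecam1 in each of 24 tumors. In MCA-970 Cdh5 was 211, 217, 236, 248, 251 and 252 CPM while Pecam1 was 40.3, 20.99, 108, 109, 119 and 113 CPM, a ratio of 2.11 to 10.3. The endothelial genes Plvap, Emcn and Robo4 were low in the same 2 MCA-970 tumors as Pecam1 (W-1D and W-R), at 24.1 and 16.9, 6.99 and 3.85, and 5.72 and 3.45 CPM, against 67.5 to 79.3, 18.2 to 28.6 and 15.8 to 18.97 CPM in the other 4. Cdh5 therefore did not vary with the other endothelial genes in MCA-970 in proportion. Between lines, Pecam1 and Cdh5 were called lower in MCA-943 than in MCA-970 (-1.65 and -2.83), and higher in MCA-970 than in MCA-972 (2.16 and 3.11). No pair without MCA-970 was called for either gene. With library series as a covariate the values of MCA-943 against MCA-970 were -0.59 and -1.97 (adjusted p = 0.663 and 0.0951, edgeR).

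The endothelial list as a whole moved with Pecam1: of 10 other genes tested, 9 rose with it within lines (5.08% of all genes called). The median was 0.98 per doubling, against -0.0019 over all genes. The exception was Ecscr (0.11, adjusted p = 0.235), which averaged 89.8 CPM in MCA-943 and 6.59 in MCA-972. None of the 11 endothelial markers was at 0 throughout a line, and their summed level was 146 to 239 CPM in MCA-943, 55.1 to 471 in MCA-948, 92.3 to 263 in MCA-969, 317 to 627 in MCA-970 and 53.5 to 138 in MCA-972. These sums include Ecscr, at 84.0 to 96.0 CPM in MCA-943, and Cdh5, at 211 to 252 CPM in MCA-970. Gene by gene, 3 of the 11 were called lower and 1 higher in MCA-943 than in MCA-969 (median log2 difference -0.98, 27.0% of all genes called). Against MCA-948, 1 was called lower and 1 higher (median -0.52, 29.0%), and against MCA-970, 9 lower and 1 higher (median -2.17, 27.3%). In MCA-970 against MCA-972, 9 were called higher and 0 lower (median 2.26, 17.6%). In MCA-948 against MCA-972, 1 was called higher and 0 lower (median 1.04, 26.8%). Of 6 pericyte markers 5 rose with Pecam1, and the sums of the 6 were 39.5 to 68.9 CPM in MCA-972 and 73.2 to 228 in the other lines. Cspg4, the exception (slope 0.01), weighs most in these sums: it was 216 of the 228 CPM in MCA-943 tumor W-2G. In MCA-943 against MCA-970, 5 of the 6 were called lower and 1 higher (median log2 difference -3.15, 27.3% of all genes called). Against MCA-972, 1 was called higher and 0 lower (median -0.39, 25.6% of all genes called). Of 7 leukocyte markers all had a negative slope on Pecam1 (-0.81 to -0.21) and an unadjusted p under 0.05, and 2 fell after adjustment (Ptprc and Lyz2, slopes -0.81 and -0.68, adjusted p = 0.0208 and 0.0488, edgeR). On Cdh5 the 7 slopes were negative too (-0.53 to -0.17), none was called (edgeR), and 1 had an unadjusted p under 0.05. The leukocyte sums were 27.9 to 126 CPM in MCA-943, 30.1 to 129 in MCA-948, 20.7 to 63.2 in MCA-969, 29 to 294 in MCA-970 and 32.9 to 72.8 in MCA-972. The 5 platelet markers summed to 2.29 to 9.26 CPM in a tumor, and Pf4 fell with Pecam1 (-0.69). The MCA-970 tumors W-1D and W-R had the highest leukocyte sums of their line (294 and 178 CPM, against 29 to 61.6 in the others). The part of leukocyte and vessel content in the members' levels was not tested.

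The members were then tested for a slope on the log2 CPM of Pecam1 or Cdh5 in single tumors, in a model that holds the line, so that differences between lines do not enter. Angpt2 rose with both: by 0.52 ± 0.05 (SE) on the log2 scale per doubling of Pecam1 (adjusted p = 4.91e-10) and by 0.49 ± 0.07 per doubling of Cdh5 (adjusted p = 1.09e-05). Thbs1 rose by 0.20 ± 0.06 and 0.21 ± 0.06 (adjusted p = 0.0303 and 0.0354). So 2 of 10 members were called on Pecam1, where 5.08% of 16861 genes were, and 2 of 10 on Cdh5, where 4.55% were. The other 8 had slopes of -0.05 to 0.23 on Pecam1 and -0.07 to 0.25 on Cdh5. Of these the largest was that of Angptl4 (0.23 ± 0.10 and 0.25 ± 0.11, adjusted p = 0.23 and 0.243). Vegfa had slopes of -0.01 ± 0.08 and -0.06 ± 0.09 (adjusted p = 0.968 and 0.813).

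**Figure D3:**
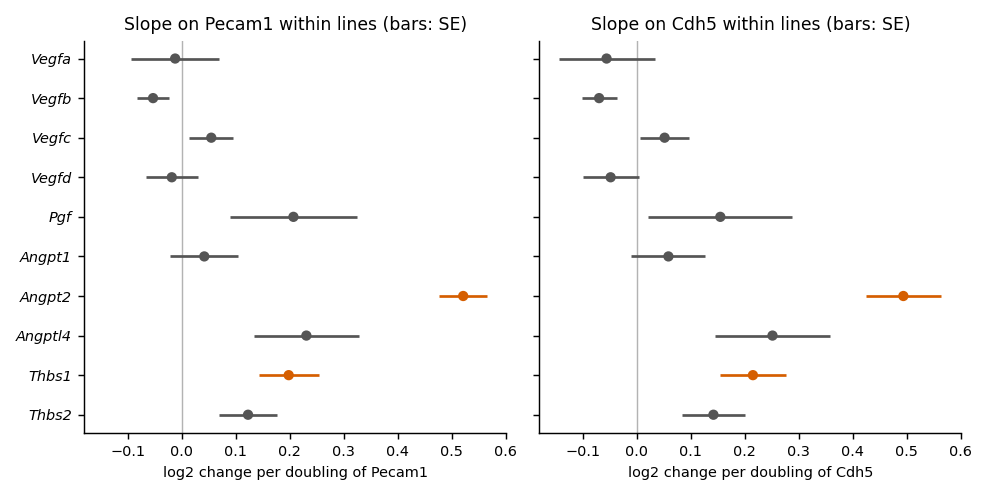
Slopes of the 10 members on Pecam1 (left) and Cdh5 (right), as log2 change per doubling of the marker in a model with the line (30 tumors). Points are estimates, bars are 1 SE, and orange marks an adjusted p under 0.05, which Angpt2 (0.52 and 0.49) and Thbs1 (0.20 and 0.21) reached.

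The Angpt2 call held in each of 36 alternatives per marker, among them each of the 30 tumors left out in turn, at 0.45 to 0.56 on Pecam1 (adjusted p at most 5.5e-06) and 0.38 to 0.57 on Cdh5 (adjusted p at most 0.00166). The Thbs1 call on Pecam1 did not hold with the series in the model (0.18, adjusted p = 0.0668) or without MCA-972 tumor a-R (adjusted p = 0.063) or MCA-948 tumor a-R (0.129) or W-2G (0.1). The Thbs1 call on Cdh5 was lost in the same cases (adjusted p = 0.0627 to 0.127), without MCA-969 tumor a-R or MCA-948 tumor a-2D (adjusted p = 0.0518 and 0.0524), and without the whole line MCA-970 (0.21, adjusted p = 0.0747). Without MCA-948 tumor a-2G, Thbs2 was called on Cdh5 too (0.19, adjusted p = 0.0312).

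Within the 3 lines of at least 6 tumors, Pearson correlations were computed for 60 relations (10 members, 2 markers, 3 lines), of which 45 were above 0 and 4 had an adjusted p under 0.05, all of them of Angpt2. In MCA-948 the order of Angpt2 was exactly that of Pecam1 and of Cdh5 in all 8 tumors. Angpt2 and Pecam1 had r = 0.93 (exact permutation p = 2.48e-05, the smallest that 8 tumors allow for r, adjusted p = 0.000744) and rho = 1.0 (exact permutation p = 4.96e-05, adjusted 0.00149), and r = 0.97 without the 2 tumors farthest from the Pecam1 median. In MCA-969 they had r = 0.97 (exact permutation p = 0.000124, adjusted p = 0.00248), rho = 0.98 (exact permutation p = 0.000397, adjusted p = 0.00595) and r = 0.89 without the 2 farthest tumors, where it was no longer called (exact permutation p = 0.0125, adjusted p = 0.25). In MCA-970, with 6 tumors, r was 0.94 (exact permutation p = 0.0111, adjusted p = 0.121) and rho 0.83 (exact permutation p = 0.0583, adjusted p = 0.269), but r was 0.40 in the 4 tumors left without the 2 of lowest Pecam1, so that the value over 6 tumors rests on those 2.

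With Cdh5, Angpt2 had r = 0.91 in MCA-948 and 0.94 in MCA-969 (exact permutation p = 2.48e-05 and 0.000694, adjusted p = 0.000744 and 0.0104), with rho = 1.0 and 0.98 (exact permutation p = 4.96e-05 and 0.000397). Without the 2 farthest tumors r was 0.97 and 0.80, and the relation in MCA-969 was no longer called (exact permutation p = 0.0347, adjusted p = 0.357). In MCA-970 it was 0.84 (exact permutation p = 0.0417, adjusted p = 0.278), with rho = 0.60 (exact permutation p = 0.242), and 0.24 without 2 tumors. Thbs1 and Pecam1 had r = 0.82 and rho = 0.83 in MCA-948 (exact permutation p = 0.0121 and 0.0154, adjusted p = 0.121 and 0.154) and r = 0.54 without the 2 farthest. Pgf and Cdh5 had r = 0.89 and rho = 0.77 in MCA-970 (exact permutation p = 0.0167 and 0.103, adjusted p = 0.143 and 0.406), over a Cdh5 range of 211 to 252 CPM, and r = 0.86 in the 4 tumors left without the 2 farthest. Vegfa had r = -0.34, 0.33 and 0.68 with Pecam1 in MCA-948, MCA-969 and MCA-970 (exact permutation p = 0.396, 0.428 and 0.186, adjusted p = 0.579, 0.598 and 0.426), with rho = -0.24, 0.36 and 0.66 (exact permutation p = 0.582, 0.389 and 0.175).

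MCA-943 and MCA-972 had 4 tumors each, under the minimum of 6 set for testing a correlation within a line. In MCA-943 Angpt2 was 5.48, 6.13, 4.99 and 5.71 CPM in order of rising Pecam1 (19.4, 21.2, 26.6 and 40.9 CPM). In MCA-972 it was 6.74, 9.07, 8.97 and 9.83 CPM at Pecam1 of 10.7, 14.2, 18.35 and 32.8 CPM. Whether the slope differs between lines was not tested.

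**Figure D4:**
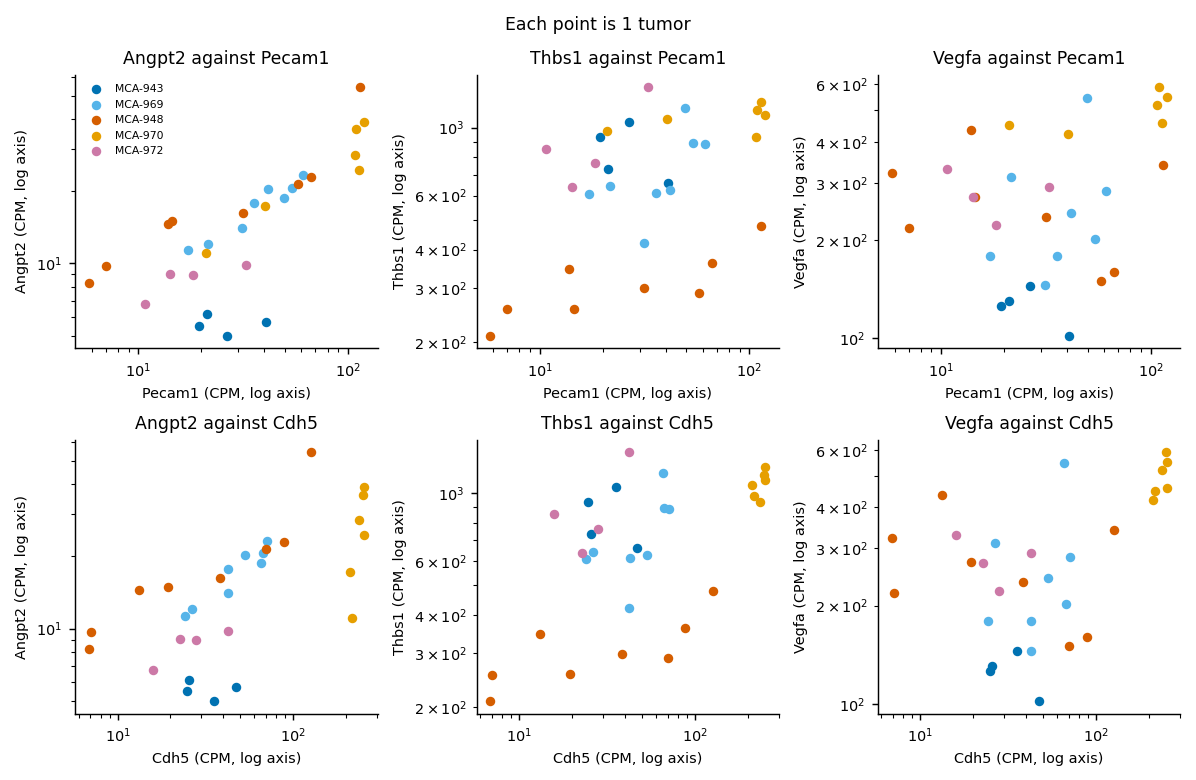
Angpt2, Thbs1 and Vegfa against Pecam1 (top) and Cdh5 (bottom) in CPM, all axes logarithmic, 1 point per tumor and 1 colour per line. Angpt2 and Pecam1 are in the same order in the 8 MCA-948 tumors (rho = 1.0), Angpt2 is at 4.99 to 6.13 CPM in MCA-943, and the 6 MCA-970 tumors stand apart on the Cdh5 axis.

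The receptors were read in the same fit. Of 11 receptor genes, 6 rose with Pecam1 and 6 with Cdh5, where 5.08% and 4.55% of all genes were called in either direction. The median slopes were 0.63 and 0.60, against -0.0019 and -0.0027 over all genes. The 3 with the largest slopes on Pecam1 were Kdr (1.08), Cd36 (0.97) and Tek (0.93), receptors for Vegfa, the thrombospondins and the angiopoietins. Nrp1, Nrp2, Cd47, Itgav and Itgb3 had slopes of -0.01 to 0.19 and were not called. Of 12 other secreted inhibitors 4 rose with Pecam1 (Sema3f 0.89, Vash1 0.57, Timp3 0.37 and Sparc, named beyond the 3 largest after its value was seen, 0.16), and of 11 other secreted activators 1 rose (Ccn2, 0.36) and 1 fell (Sema4d, -0.57).

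The genes most like each member were found by Pearson correlation of log2 CPM after each line's mean was subtracted, over 30 tumors, as a description without a test. For Angpt2 they were Cracr2b (0.95), Sept4 (0.94) and the endothelial claudin Cldn5 (0.92). For Vegfa they were F3, which encodes tissue factor (0.88), Ugdh (0.87) and Ndrg1 (0.87). Pgf was closest to Vim (0.87), Grasp (0.85) and Ndrg1 (0.84). Thbs1 was closest to Fgf18 (0.82), the fibril-associated collagen Col12a1 (0.76) and Peli1 (0.76), Thbs2 to Galnt13 (0.82), Dmd (0.76) and Arhgap24 (0.76), and Angptl4 to Col12a1 (0.75), Psd (0.69) and Gm16567 (0.69). Vegfc was closest to Apaf1 (0.79), Arhgef10 (0.79) and Map7d1 (0.78), Vegfb to Mrpl45, Stx4a and Ndufa13 (0.81 to 0.83), and Angpt1 to Hipk3 (0.77), Fndc3b and Hivep2 (0.71 each).

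Ndrg1 is among the 13 genes of a list known to rise under hypoxia, and each member was set against that list. For Vegfa all 13 exceeded 0.5 (median 0.68, from Car9 at 0.53 to Ndrg1 at 0.87), where 7.83% of all genes did. For Pgf all 13 exceeded 0.5 too (median 0.68, from Ldha at 0.54 to Ndrg1 at 0.84), where 8.74% of all genes did. Vegfd followed with 9 of 13 (median 0.58) and Vegfb with 6 of 13 (median 0.42), against 8.39% and 8.71%. Thbs1 had 1 of 13 above 0.5 (median 0.22), where 4.35% of all genes were. Angptl4, Thbs2, Angpt1 and Vegfc had none (medians 0.07, -0.00030, -0.06 and -0.22). On 6 measured PPAR-induced genes the medians ran from -0.21 for Vegfc to 0.47 for Pgf. Angptl4 had a median of 0.44 there, with 2 of 6 above 0.5, where 0.937% of all genes were. On the pericyte markers its median was 0.42, with none above 0.5. Vegfc had its highest median on the lymphatic endothelium markers (0.53, 3 of 4 above 0.5, where 5.12% of all genes were). Angpt2 was at -0.03 on the hypoxia list and at 0.86 on the endothelial one, where 10 of 11 exceeded 0.5 and 4.93% of all genes did. It had a median of 0.82 on the pericyte markers (5 of 6 above 0.5) and of 0.55 on the lymphatic endothelium markers (4 of 4 above 0.5). None of the 13 hypoxia-induced genes was called on Pecam1 or Cdh5 (edgeR, median slopes -0.07 and -0.10), where 0 and 2 had an unadjusted p under 0.05. The correlations share libraries and depth, and genes are not independent replicates.

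**Figure D5:**
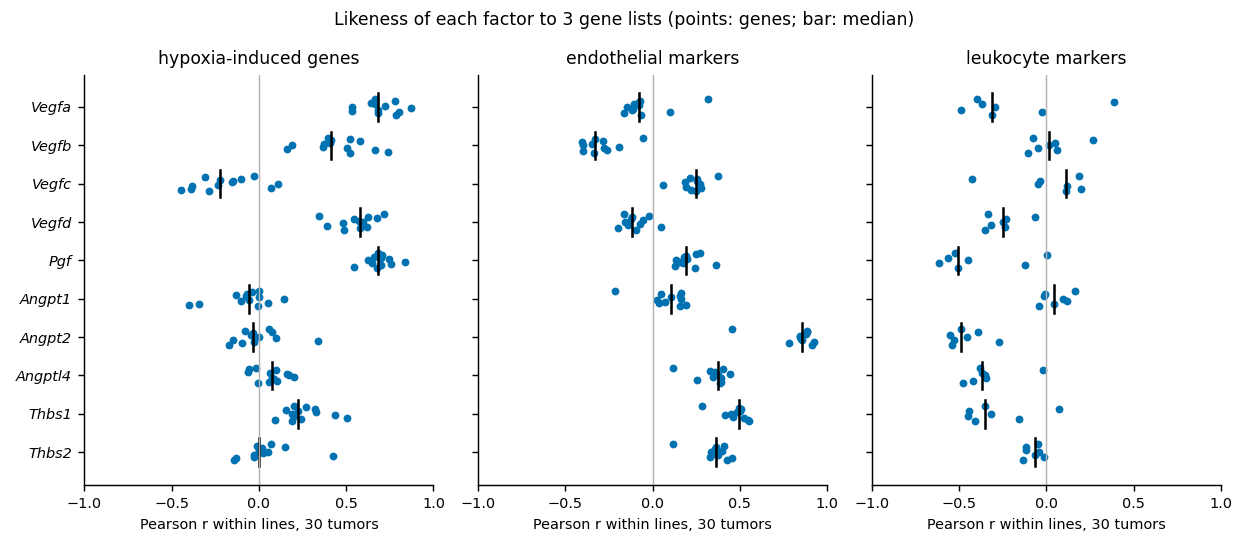
Pearson correlation of each member with the genes of 3 lists, on log2 CPM centred within lines over 30 tumors. Points are genes of the list and bars their medians; Vegfa and Pgf lie above 0.5 for all 13 hypoxia-induced genes, Angpt2 has a median of 0.86 on the endothelial list, and Pgf and Angpt2 have medians of -0.51 and -0.49 on the leukocyte list.

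Windows at annotated starts of Vegfa and Pgf are shown because these members were the closest to the hypoxia list. The windows come from RefSeq (GRCm38.p6) and run from 250 bases before to 50 bases after an annotated start, in the direction of the gene. They were searched on both strands for the motifs ACGTG and GCGTG, the cores of the hypoxia response element, and capitals mark a match.
Vegfa, downstream start, chr17:46025114-46025413, minus strand: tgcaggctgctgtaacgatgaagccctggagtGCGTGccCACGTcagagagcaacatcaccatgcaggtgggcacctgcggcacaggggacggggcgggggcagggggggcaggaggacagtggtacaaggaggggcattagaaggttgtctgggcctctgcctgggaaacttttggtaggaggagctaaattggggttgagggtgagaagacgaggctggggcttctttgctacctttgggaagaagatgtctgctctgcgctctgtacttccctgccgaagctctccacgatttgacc
Vegfa, upstream start, chr17:46032328-46032627, minus strand: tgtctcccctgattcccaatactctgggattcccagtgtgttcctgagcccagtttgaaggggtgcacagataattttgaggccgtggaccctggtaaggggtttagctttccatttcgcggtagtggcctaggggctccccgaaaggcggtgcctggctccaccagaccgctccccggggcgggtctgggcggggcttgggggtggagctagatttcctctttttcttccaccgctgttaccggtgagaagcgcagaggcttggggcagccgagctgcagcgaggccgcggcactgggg
Pgf, downstream start, chr12:85175933-85176232, minus strand: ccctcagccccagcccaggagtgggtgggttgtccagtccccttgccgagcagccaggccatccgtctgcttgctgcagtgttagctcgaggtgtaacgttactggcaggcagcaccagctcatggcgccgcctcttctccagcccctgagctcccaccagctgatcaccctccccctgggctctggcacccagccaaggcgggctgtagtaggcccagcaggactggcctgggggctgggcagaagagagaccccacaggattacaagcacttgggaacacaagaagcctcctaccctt
Pgf, upstream start, chr12:85177264-85177563, minus strand: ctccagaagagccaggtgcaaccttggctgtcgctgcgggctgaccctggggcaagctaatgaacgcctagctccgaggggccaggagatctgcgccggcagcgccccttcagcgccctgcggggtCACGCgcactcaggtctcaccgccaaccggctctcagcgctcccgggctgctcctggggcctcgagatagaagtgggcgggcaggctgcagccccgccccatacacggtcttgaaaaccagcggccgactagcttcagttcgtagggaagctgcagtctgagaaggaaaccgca

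By the gene annotation Vegfa spans chr17:46016993-46032369 and Pgf chr12:85166635-85177790, both on the minus strand. The downstream Vegfa window and both Pgf windows lie inside those spans, and the upstream Vegfa window reaches across the start of the gene. The downstream Vegfa window held GCGTG at -218 to -214 from its start and ACGTG, on the other strand, at -211 to -207. The upstream Vegfa window held neither motif. Of the Pgf windows, the upstream one held GCGTG at -124 to -120, on the other strand. Of 32851 windows of all genes, 19.6% held ACGTG, 32.4% held GCGTG and 43.8% held either. Windows were given for 6 of the 10 members (8 windows), of which 3 held either motif, the remaining one being that of Vegfb with GCGTG at -237 to -233 and -81 to -77. Vegfc, Vegfd and Thbs2 had no match. Angpt1, Angpt2, Angptl4 and Thbs1 were not in the table. A match of 5 letters is a description of the sequence. Whether a match lies in protein-coding sequence was not examined, and sequence more than 250 bases before a start was not searched.

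Most titles include the letter W or the letter a, which the labels leave unexplained, and the 26 tumors of the 4 lines with both letters were compared within lines. None of the 10 members was called (edgeR, adjusted p under 0.05), where 0.272% of 16557 genes were, 1 (Thbs2, -0.31 ± 0.11) had an unadjusted p under 0.05, and the adjusted p of the members was 0.453 to 0.996. The widest difference was that of Angpt2 (-0.42 ± 0.23 for W minus a, adjusted p = 0.757), beside -0.85 for Pecam1 (adjusted p = 0.628). In MCA-969 the W tumors had 243 to 545 CPM of Vegfa and the others 145.5 to 202, without overlap, but the test of whether the letter acts differently among lines did not call Vegfa (adjusted p = 0.5). Of those W tumors, W-1D and W-2D came from another library series than the a tumors and were labelled sensitive, as no a tumor was. Letter, series and label are thus partly mixed in this line. The share of all genes that separate there by letter was not computed.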

How the data were processed

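The authors aligned reads of 30 CD45-depleted tumors to GRCm38 with STAR 2.5.3a, removed duplicates (the processing notes name Picard, and the column names of the deposited table add molecular identifiers) and counted them per gene with featureCounts (1.5.2 in the notes; the study's methods give another version). The deposited table holds whole-number counts of 48440 genes, not normalized, and, per the file headers, an exon length in bases, a value of another kind that served for levels per kilobase. No strand setting is given in the sources used here, and 0 columns of the table lacked a sample. Gene names and positions came from GENCODE (48058 identifiers named), and promoter windows from RefSeq.

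Total counts, 27745104 to 46537062 per tumor, bound the precision; a count of 0 would allow up to 3 counts. edgeR 4.0.16 in R 4.3.3 was used on all 30 tumors: filterByExpr by line (16862 genes kept), TMM factors, robust quasi-likelihood fits with line as the only term, and Benjamini-Hochberg adjustment over all genes tested. The common biological coefficient of variation was 0.221. Pairs of lines were called at an adjusted p under 0.05 with a log2 fold change of 1 or more in either direction, and slopes on Pecam1 and Cdh5 (log2 CPM, prior count 2) and the title letter at an adjusted p under 0.05. Within-line correlations used exact two-sided permutation tests over 60 relations (Python 3.11.15, NumPy 2.4.6). The fits were tested on simulated data.

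The 10 members and both markers are always named, list genes by size (at most 3 a list, with exceptions stated), and 3 most similar genes per member (those of Vegfd are not reported here). Members and lists were chosen with earlier results of these data known. Alternatives were DESeq2 1.42.0 as test or for size factors, no filter, no fold threshold, marker prior count of 0.5, library series as covariate or alone, the title code as a replicate block, and leaving out each tumor, the 2 MCA-969 tumors labelled sensitive or, chosen after seeing the data, line MCA-970. Same-numbered tumors did not pair: over 500 genes, 29 pairs sharing a title code had a median correlation of 0.0168 (-0.7 to 0.679), against 0.00376 for 323 other pairs.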

Additional observations from a re-analysis of the deposited data

Results flagged for a closer look

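2 values stood apart from the rest of their line among 60 groups examined (10 members and both reference genes in 5 lines, where chance marks about 1 group in 20). Vegfa in the MCA-969 tumor W-R was 545 CPM, against 145.5 to 312 CPM in the other 7 tumors of that line. Angpt2 in the MCA-948 tumor a-R was 54.4 CPM, against 8.25 to 22.9 CPM in the other 7; Pecam1 and Cdh5 were also highest in that tumor (114 and 126 CPM).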

How the results depend on the processing

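Of the 46 called differences between lines, all kept their side of the thresholds with DESeq2 as the test or for the size factors, 43 with no filter on low counts, 44 without the 2 MCA-969 tumors labelled sensitive, 37 with the title code as a replicate block and 29 with library series as a covariate; 37 held with every tumor left out in turn. With no fold threshold, members called rose to 7 (MCA-969 and MCA-948), 5 (MCA-969 and MCA-970), 6 (MCA-969 and MCA-972), 6 (MCA-948 and MCA-970) and 6 (MCA-970 and MCA-972). With library series as a covariate they fell to 30 over all 10 pairs, with Vegfd in MCA-943 against MCA-969 newly called. Pgf reversed against MCA-969 (0.021) and MCA-972 (0.20). Members called were 4 (MCA-943 and MCA-970), 2 (MCA-943 and MCA-972), 1 (MCA-969 and MCA-948) and 3 (MCA-948 and MCA-972), and 1 each on Pecam1 and Cdh5. With the paired fit (replicate block) they were 3 for MCA-943 and MCA-972, 3 for MCA-948 and MCA-972 and 1 each on Pecam1 and Cdh5, and the uncalled slopes of Vegfa (0.11 on Pecam1, 0.038 on Cdh5) and Angpt1 on Cdh5 (-0.025) reversed; it changed the count of calls by over 1.5 times nowhere else. Within the series of MCA-969 and MCA-948, 1 member was called, and without line MCA-970, 1 on Cdh5. Without the 2 tumors farthest from the marker's median, 2 correlations passed in place of 4 (Angpt2 in MCA-948; both of Angpt2 in MCA-969 were lost), at 4 or 6 tumors. With each tumor left out, 1 to 2 members were called on Pecam1 and 1 to 3 on Cdh5, and uncalled slopes crossed 0 for Vegfa (-0.076 to 0.025) and Vegfd (-0.092 to 0.0053) on Pecam1 and Pgf on Cdh5 (-0.079 to 0.23). Apart from fewer tumors, wider terms and thresholds, the cause was not tested. Limits are 4 tumors in 2 lines, the series that MCA-943 shares with MCA-948 alone, and bulk RNA.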
